A study of Mus musculus with 4 samples.

Results

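The BCL2 family decides whether the outer mitochondrial membrane of a cell stays sealed. Survival proteins such as BCL2, BCL-XL, MCL1 and A1 hold the pore-forming effectors BAX and BAK in check, and BH3-only proteins such as BIM and PUMA bind the survival proteins and release or activate the effectors. An open membrane lets cytochrome c reach the apoptosome, which switches on caspases. In macrophages, MCL1 is a short-lived survival protein and A1 is a known target of NF-kB, the transcription factor that Toll-like receptors activate.

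The genes described are 10 members of this family, chosen by symbol: the survival genes Mcl1, Bcl2a1a, Bcl2a1b, Bcl2a1d, Bcl2l1 (BCL-XL) and Bcl2, the BH3-only genes Bcl2l11 (BIM) and Bbc3 (PUMA), and the effectors Bax and Bak1. All 10 were found among the 52550 gene entries by Ensembl ID, and all 10 passed the filter on low counts, as did 12730 entries in all. The study sequenced polyadenylated RNA of macrophages grown from bone marrow. The mice were C57BL/6, 8 to 10 weeks of age. There were 4 groups of 1 library each: wild-type cells left unstimulated, wild-type cells given LPS at 100 ng/mL for 12 hours, miR-7 deficient cells left unstimulated, and miR-7 deficient cells given the same LPS. LPS is the bacterial outer-membrane lipid that signals through TLR4. The sources used here do not say how the deficiency was made or whether marrow of several mice was pooled.

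Libraries held 33937823 to 42074624 counts. Values are CPM (each count over its library's total, in the usual unit, after TMM scaling between libraries), and 4 values in a row follow the order wild-type unstimulated, wild-type LPS, deficient unstimulated, deficient LPS. With 1 library per group there is no replicate of a group. The tests of LPS and of genotype come from an additive edgeR model. In it, the pair of LPS comparisons, or the pair of genotype comparisons, stands in for replicates. Its p-values and standard errors rest on how alike those pairs are and on a spread shared over all genes. The shared spread weighs more (5.18 prior degrees of freedom against 1 residual). Neither is the spread among mice. "Rose" and "fell" are used only for an adjusted p under 0.05 in that model. Ratios between single libraries carry a 95% interval for counting error only. All 8 macrophage markers listed were present at 1 CPM or more. Their sum, most of it Lyz2, was 22156, 13394, 22731 and 15150 CPM, lower in both LPS libraries. Single markers went both ways. Csf1r, Cd68, Itgam and Lyz2 were lower with LPS in both genotypes. Adgre1, Fcgr1 and Cd14 (97.7, 908, 89.8 and 971 CPM) were higher in both, and Mertk was lower in wild-type and higher in deficient cells. Itgam stood at 965, 396, 291 and 277 CPM, apart in the unstimulated genotypes. Of 10 neutrophil markers, Ly6g, Elane and Retnlg had 0 counts in every library and the summed level was 39.2 to 50.2 CPM, most of it Csf3r. Of 5 B cell markers, none reached 1 CPM and the sum was 0.121 to 0.347 CPM. The summed level of 6 T cell markers was 1.82, 1.87, 5.73 and 5.31 CPM, higher in both deficient libraries, with Cd3d at 0 counts. Most of it was Cd4 (1.26, 0.513, 4.56 and 1.15 CPM), lower with LPS, and Lck (0.513, 1.36, 0.867 and 3.82 CPM), higher with LPS. The summed level of 5 fibroblast markers was 1.30, 2.14, 1.33 and 2.83 CPM, with Dcn higher and Col3a1 lower in both LPS libraries. That of 5 dendritic cell markers was 9.05 to 32.9 CPM, with Flt3 at 0 counts. This sum was lower in both LPS libraries through Clec9a, at 23.1, 4.34, 29.8 and 1.31 CPM. Zbtb46 (1.22, 4.16, 3.08 and 5.42 CPM) and Xcr1 (0, 2.53, 0 and 2.11 CPM) went the other way. Of 5 mast cell and basophil markers, Mcpt4, Mcpt8 and Fcer1a had 0 counts and the sum was 3.36 to 11.2 CPM. Cpa3, at 1.15, 7.36, 0.153 and 0.641 CPM, was higher with LPS in both genotypes. Kit, at 5.88, 3.89, 7.52 and 2.72 CPM, was lower in both. The part of other cells in the results was not tested. Xist stood at 0.513 and 0.483 CPM in the wild-type libraries and at 714 and 686 CPM in the deficient ones, while the Y-linked Ddx3y stood at 43.0 and 46.4 CPM against 0.229 and 0.320 CPM. Genotype and the sex of the marrow donors therefore cannot be told apart in any genotype value below. Of the precursor entries for miR-7, Mir7-1 had 15, 10, 7 and 7 counts, and Mir7-2 and Mir7b had 0. Mature microRNAs lack a poly(A) tail, so these entries do not check the deficiency.

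The microRNA that the deficient cells are labelled as lacking is shown first, since microRNAs lower the mRNAs they pair with. Human BCL2 has been reported as a miR-7 target. Both mature forms in the RefSeq table (GRCm38.p6) share a seed, bases 2 to 8, given in capitals.
mmu-miR-7a-5p: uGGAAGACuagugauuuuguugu
mmu-miR-7b-5p: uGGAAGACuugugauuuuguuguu
Matches to this seed were searched in the longest 3′ UTR that GENCODE M21 gives for each member. A match counted if it paired with bases 2 to 8, or with bases 2 to 7 followed by an A. Such a match was present in 3 of the 10 members, Bcl2, Bcl2l11 and Mcl1, beside 28.5% of the 11314 tested genes with an annotated UTR. Those with a match have long UTRs (5086, 4218 and 2353 bases, against a median of 1370 bases over tested genes), and the Bcl2a1 copies have short ones of 147 to 149 bases. The matched stretches of the 3 genes are printed because the genotype values below are read beside them, with the bases that pair to the seed, and the A beside them, in capitals.
Bcl2, from base 540 of the UTR: tacaagaaagcctgGTCTTCCAtg
Bcl2, from base 2053: ccactcgaccttgttTCTTCCAgg
Bcl2l11, from base 1258: cgagtaaagcacttGTCTTCCAca
Bcl2l11, from base 3753: catggaaatggttttGTCTTCCtg
Mcl1, from base 2188: tgcagtcttcaagcaTCTTCCAtg
The positions give the first capital base, counted from the base after the stop codon. A match is a description of the letters, not a measured site.

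LPS separated the family into genes that rose and genes that fell or did not pass. Of the 10 members, 6 passed the test (34.3% of all tested genes did). Of these, 5 rose (18.0% of all tested genes did): the A1 copies Bcl2a1a, Bcl2a1b and Bcl2a1d, Mcl1 and the effector Bak1. Bcl2l1 alone fell (16.3% of all tested genes did), and the other 4 did not pass. With the near-identical A1 copies counted as 1 gene, 3 of 8 rose and 1 fell. The median fitted LPS effect was log2 0.54 over the 10 members, -0.08 with the copies as 1 gene, and -0.04 over all genes tested. Both LPS libraries stood above both unstimulated ones for 6 members (33.7% of tested genes) and below them for 4 (37.2%), so that all 10 were separated, as were 70.9% of tested genes. Between single libraries, 5 members lay wholly beyond 2-fold with LPS in wild-type cells (28.1% of tested genes did), all of them higher (14.8%, and 13.3% lower). In deficient cells 4 did (24.2%), again all higher (12.5%, and 11.8% lower). Scaled by total counts instead of TMM, the log2 LPS ratio of every gene shifts by -0.44 in wild-type and -0.38 in deficient cells, and the split over all genes moves from 2297 higher and 2075 lower to 1550 and 3840.

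**Figure D1:**
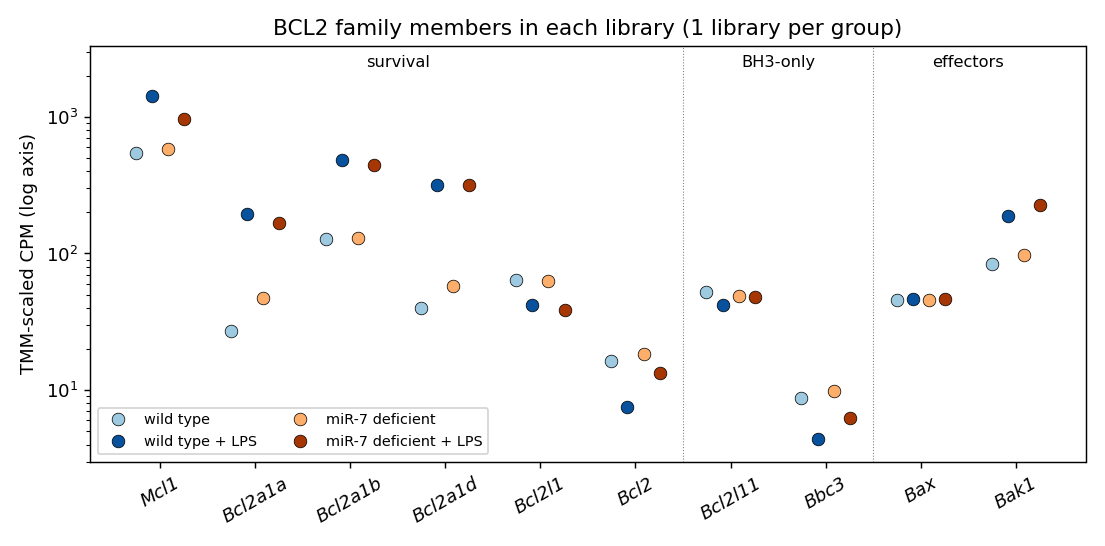
TMM-scaled CPM (log axis) of each of the 10 members, 1 point per library, with survival genes on the left, BH3-only genes in the middle and effectors on the right. The 3 Bcl2a1 copies, Mcl1 and Bak1 are higher in both LPS libraries than in both unstimulated ones, and Bax stays between 45.5 and 46.8 CPM.

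Among the 10 members, the A1 copies had the highest fitted LPS effects. A1 is a survival protein of blood cells that a single gene encodes in humans and several copies encode in mice. Bcl2a1b (chr9:89199209-89207827, plus strand, GRCm38), the copy with most counts, stood at 129, 480, 130 and 443 CPM. Both LPS libraries stood far above both unstimulated ones, and the unstimulated libraries of the genotypes lay within counting error of each other. It rose by a fitted log2 of 1.84 ± 0.19 (SE, adjusted p 0.00107). Bcl2a1d (chr9:88723285-88731914, minus strand) stood at 39.9, 317, 57.8 and 319 CPM and rose by log2 2.73 ± 0.22 (adjusted p 0.000461). Bcl2a1a (chr9:88956900-88962419, plus strand) stood at 27.1, 195, 47.4 and 167 CPM and rose by log2 2.33 ± 0.29 (adjusted p 0.00197). Of these copies, Bcl2a1a and Bcl2a1d were lowest in the wild-type unstimulated library, and the genotypes lay nearer each other with LPS than without it. Bcl2a1c, a further copy, had 4, 0, 2 and 3 counts and was not tested.

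Reads of these copies are hard to tell apart. In pairwise alignment the coding sequences of 519 bases differed at 6 to 11 positions, an identity of 97.9% to 98.8%. Of the 50-base windows in the transcripts, 69.0% of those of Bcl2a1a, 79.2% of Bcl2a1b and 79.5% of Bcl2a1d also occurred in a transcript of another gene, all of them other A1 copies or Gm29094, an entry that shares exonic bases with Bcl2a1b. Over 100-base windows the shares were 43.5%, 56.8% and 54.7%. The sources used here give neither the read length nor how reads that fit several places were treated, so values of single copies are uncertain. Summed, the 3 copies stood at 196, 992, 235 and 930 CPM and rose by log2 2.16 ± 0.21 (adjusted p 0.000883). The sum was 5.07-fold higher with LPS in wild-type cells and 3.96-fold higher in deficient cells. Bcl2a1b held 65.7% of the summed counts in the wild-type unstimulated library (exact interval 64.8% to 66.7%) and 55.2% (54.2% to 56.2%) in the deficient unstimulated one. With LPS its share was 48.4% and 47.7%. The copies' makeup thus differed between the unstimulated libraries by more than counting error, and Gm29094 itself had 143, 576, 130 and 559 counts.

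The promoters of the copies are alike as well. All 10 members have windows in the RefSeq promoter table (250 bases before to 50 after a start, 15 windows in all). The windows of Bcl2a1a and Bcl2a1d differed at 6 aligned positions and 12 gap columns. That of Bcl2a1b, whose annotated start lies further downstream, differed from them at 2 and 3 aligned positions beside 88 and 100 gap columns. Each copy holds the AP-1 motif TGANTCA just before GAGGAAGT, a form of the motif of the myeloid factor PU.1, and both are in capitals in the stretches below, read along the gene's strand. They are shown because the 3 copies rose together, though such near-identical copies share letters whether or not they respond to LPS.
Bcl2a1a, chr9:88956797-88956826: aacTGAATCAgaagaggaaGAGGAAGTggt
Bcl2a1b, chr9:89199106-89199135: aacTGAATCAgaagaggaaGAGGAAGTggt
Bcl2a1d, chr9:88731944-88731967: aacTGAATCAgaaGAGGAAGTggt
The AP-1 match begins 120, 164 and 114 bases before the annotated start. Bcl2a1d has 3 bases between the motifs where the other copies have 9. Searched on both strands, TGANTCA, which reads the same on either strand, occurs in 7.81% of the 32851 promoter windows and GAGGAAGT in 3.20%. Among the other members, GAGGAAGT occurs in the Bak1 window and TGANTCA in none. The 10-base NF-kB consensus occurs in 1 window each of Bbc3 and Bcl2l1, against 8.46% of all windows, and in none of the A1 windows. The last count says only that these letters are not in the 300 bases searched.

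Mcl1 was the most abundant member by CPM in every library. Its protein restrains BAK in particular and is degraded within a short time of synthesis. Mcl1 (chr3:95658788-95663176, plus strand) stood at 545, 1425, 578 and 957 CPM and rose with LPS by log2 1.06 ± 0.24 (adjusted p 0.0177). The wild-type LPS library was highest and the deficient LPS library stood between it and the unstimulated ones. LPS went with a 2.61-fold higher level in wild-type cells and a 1.66-fold higher one in deficient cells, log2 1.39 (1.36 to 1.41) and 0.73 (0.70 to 0.75). The call for LPS ended under total-count scaling (log2 0.65, adjusted p 0.0660). In a model of LPS alone it also ended without the wild-type unstimulated (adjusted p 0.121), wild-type LPS (0.0783) or deficient unstimulated library (0.0997).

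Bcl2l1 and Bcl2, the founding survival genes, did not follow Mcl1 and A1. Bcl2l1 (chr2:152780668-152831728, minus strand) stood at 63.6, 41.9, 62.6 and 38.7 CPM and fell by a fitted log2 of -0.65 ± 0.19 (adjusted p 0.0447). Its LPS libraries lay below its unstimulated ones by 1.52-fold in wild-type and 1.62-fold in deficient cells. That call stood close to the limit and ended with DESeq2 size factors (adjusted p 0.0567), with no filter on low counts (0.0782) and, in a model of LPS alone, without any 1 of the 4 libraries (0.0675 to 0.183). Bcl2 (chr1:106538178-106714274, minus strand) stood at 16.4, 7.51, 18.3 and 13.4 CPM. It was lowest in the wild-type LPS library, where it had 249 counts. Its fitted LPS effect was log2 -0.79 ± 0.26 and did not pass (adjusted p 0.0630), but passed under total-count scaling (log2 -1.19, adjusted p 0.0198) and, with LPS alone in the model, without the deficient LPS library (log2 -1.21, adjusted p 0.0402). An antisense entry, D630008O14Rik, shares exonic bases with Bcl2 and had 107, 16, 52 and 33 counts.

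**Figure D2:**
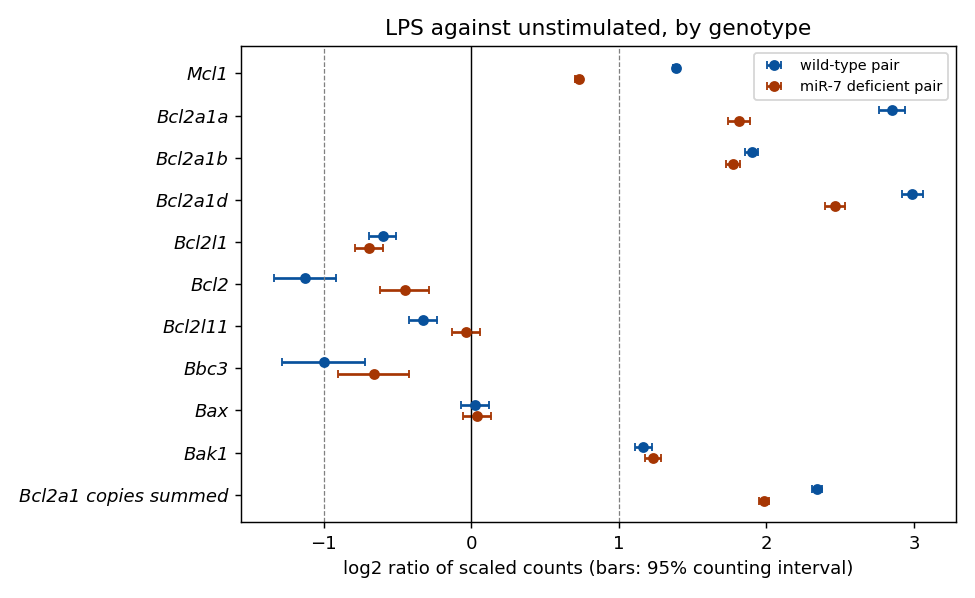
Log2 ratio of LPS to unstimulated scaled counts for each member and for the summed Bcl2a1 copies, in the wild-type pair and the miR-7 deficient pair. Bars are 95% intervals for counting error only and dashed lines mark 2-fold. Mcl1 lies beyond 2-fold in the wild-type pair (1.39) and within it in the deficient pair (0.73).

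The BH3-only members, Bcl2l11 and Bbc3, did not pass the test for LPS. Bcl2l11, which encodes BIM, a binder of all survival proteins, stood at 52.7, 41.9, 49.2 and 48.0 CPM (chr2:128126038-128162547, plus strand). The wild-type LPS library was lowest, and the fit was log2 -0.18 ± 0.20 (adjusted p 0.526). Bbc3, which encodes PUMA, a p53 target, was the least abundant member by CPM, at 8.74, 4.37, 9.89 and 6.25 (chr7:16308393-16318205, plus strand). Both LPS libraries lay below both unstimulated ones, with a log2 ratio between -1.28 and -0.72 in wild-type cells and one of -0.66 (-0.90 to -0.42) in deficient cells. The fit of log2 -0.83 ± 0.30 did not pass (adjusted p 0.0776) and passed under total-count scaling (log2 -1.24, adjusted p 0.0229).

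The effectors parted. Bax (chr7:45461697-45466898, minus strand) stood at 45.5, 46.3, 45.5 and 46.8 CPM, a range inside counting error, with a fit of log2 0.03 ± 0.19 (adjusted p 0.913). Gm45808, on the same strand, shares exonic bases with Bax and had 0 counts in every library. How reads in the shared bases were treated is not given. Bak1 (chr17:27019810-27029009, minus strand) stood at 84.4, 189, 97.0 and 228 CPM and rose by log2 1.20 ± 0.18 (adjusted p 0.00402). Both LPS libraries were above both unstimulated ones, by 2.24-fold in wild-type and 2.35-fold in deficient cells. In a model of LPS alone its call ended without the wild-type unstimulated library (adjusted p 0.0517). Ggnbp1, on the other strand, shares exonic bases with Bak1 and had 14 to 44 counts per library.

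Per kb of exon, the order of the members changed little. In CPM per kb, Mcl1 and Bcl2a1b led without LPS at 160 and 157 in wild-type and 169 and 159 in deficient cells. With LPS, Bcl2a1b led at 587 and 543, and Mcl1 stood at 417 in wild-type cells, above Bcl2a1d at 368, and at 280 in deficient cells, below Bcl2a1d at 370. By exon length, Bax, Bcl2l1, Bcl2l11, Bbc3 and Bcl2 held ranks 6 to 10 in every library. By the longest transcript, Bax in unstimulated wild-type cells (41.4) stood above Bak1 (35.4) and Bcl2a1a (33.1). Bcl2 was the lowest throughout, at 1.79 and 0.820 CPM per kb in wild-type cells, and its level lay between the 18.1 and 30.3 percentiles of all tested genes. Bak1 stood at 1.21 times Bax per kb in unstimulated wild-type and 1.39 times in unstimulated deficient cells, but at 0.855 and 0.981 times when the longest transcript was taken as the length. With LPS it stood at 2.68 and 3.19 times Bax (1.89 and 2.24 times by the longest transcript).

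Of the summed survival-gene level per kb, the A1 copies held 57.5% in wild-type and 60.5% in deficient unstimulated cells, and 73.6% and 79.4% with LPS. Mcl1 held 38.7% and 36.1% without LPS and 25.7% and 19.9% with it. Bcl2l1 held 3.36% and 2.91% without LPS, and under 1% with it (0.564% and 0.599%). The share of Bcl2 was 0.435% and 0.427% without LPS and 0.0506% and 0.104% with it. Summed survival genes stood at 6.44 and 6.77 times the summed effectors without LPS, and at 15.0 and 11.3 times with it. By the longest transcript these ratios were 5.52 and 5.85 without LPS, and 13.4 and 10.2 with it. These shares describe mRNA in 1 library each and have no test. How reads shared by the A1 copies were treated is not given. The level of their sum, and the shares and ratios built on it, are therefore uncertain too. In bulk RNA, fewer cells that express a gene and less RNA per cell cannot be told apart.

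**Figure D3:**
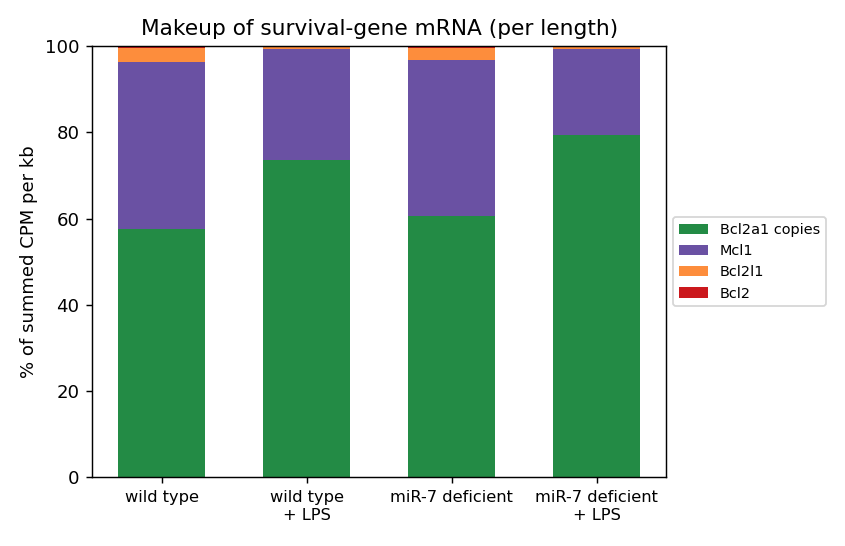
Share (%) of the summed CPM per kb of survival genes held by the Bcl2a1 copies, Mcl1, Bcl2l1 and Bcl2 in each library. The Bcl2a1 share is 57.5% and 60.5% in the unstimulated libraries and 73.6% and 79.4% in the LPS libraries, while Mcl1 takes the smaller share there.

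Genotype was compared next. In the edgeR model, 0 of the 10 members passed for genotype (0.550% of all tested genes did, 0.385% higher and 0.165% lower). An unadjusted p under 0.05 was held by 0 members, beside 968 of all 12730 tested genes. DESeq2 called 0 members as well. The median fitted genotype effect of the members was log2 0.14 (higher in deficient cells), 0.07 with the A1 copies as 1 gene, and 0.02 over all genes. Among single pairs of libraries, no member lay wholly beyond 2-fold without LPS (4.23% of tested genes did, 2.82% higher and 1.41% lower) or with LPS (5.62% did, 2.58% higher and 3.04% lower).

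The members with a miR-7 seed match differed among themselves. Bcl2 was 1.12-fold higher in deficient than in wild-type cells without LPS (log2 0.16, 0.01 to 0.31) and 1.78-fold higher with LPS (log2 0.83, 0.61 to 1.06). Its fitted genotype effect was log2 0.49 ± 0.26 (adjusted p 0.814). Mcl1 was 1.06-fold higher without LPS (log2 0.08, 0.06 to 0.11) and 1.49-fold lower with LPS (log2 -0.57, -0.59 to -0.55), with a fit of -0.24 ± 0.24 (adjusted p 0.947). Bcl2l11 was 1.07-fold lower without LPS (log2 -0.10, -0.18 to -0.01) and 1.15-fold higher with LPS (log2 0.20, 0.09 to 0.30). Its fit was 0.05 ± 0.20 (adjusted p 0.996). So the genes with a match included values on both sides of 0, and none passed the test.

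Among members with no match, Bcl2a1a and Bcl2a1d were 1.75-fold and 1.45-fold higher in deficient unstimulated cells, while with LPS they stood at log2 -0.23 (-0.28 to -0.18) and 0.01 (-0.03 to 0.05). Summed, the A1 copies were 1.20-fold higher without LPS and 1.07-fold lower with it, and the fit was log2 0.08 ± 0.20 (adjusted p 0.993). Bbc3 was 1.13-fold higher without LPS, where the interval held 0 (log2 -0.03 to 0.38), and 1.43-fold higher with LPS (log2 0.51, 0.21 to 0.82). Bak1 was 1.15-fold and 1.20-fold higher (fit 0.23 ± 0.18, adjusted p 0.911). Bax and Bcl2l1 had fits of 0.01 ± 0.19 and -0.07 ± 0.19. A p that misses the limit here, with 1 residual degree of freedom, does not show that the genotypes were alike.

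**Figure D4:**
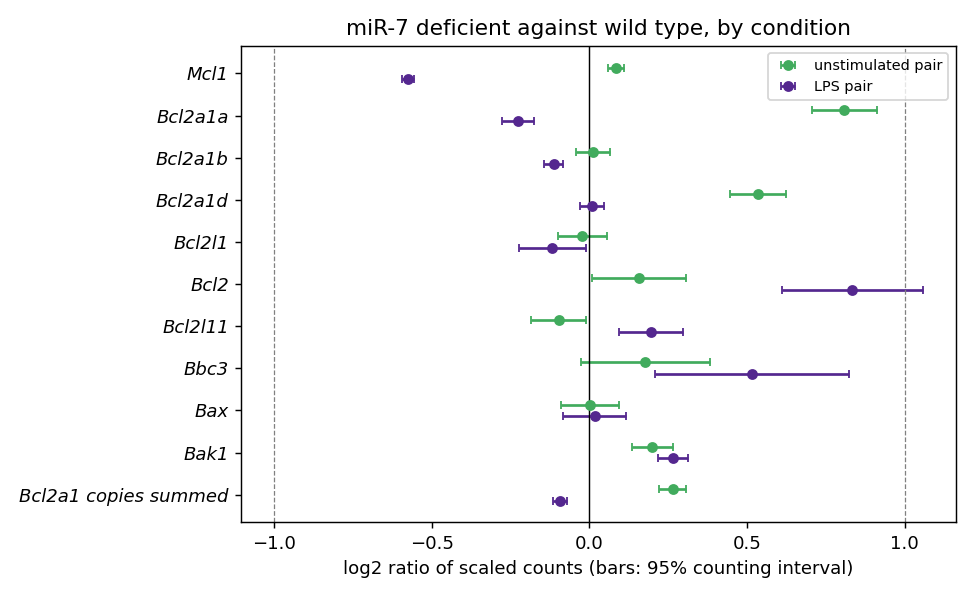
Log2 ratio of miR-7 deficient to wild-type scaled counts for each member and the summed Bcl2a1 copies, in the unstimulated pair and the LPS pair. Bars are 95% intervals for counting error only and dashed lines mark 2-fold. With LPS, Bcl2 lies at 0.83 and Mcl1 at -0.57, and Bax lies near 0 in both pairs.

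The difference between the LPS ratios of the genotypes asks whether deficient cells answered LPS differently. It has no replicate and no test. No member lay wholly beyond 2-fold (6.08% of tested genes did, 2.26% with a larger and 3.82% with a smaller ratio in deficient cells). Bcl2a1a came nearest, with an LPS ratio 2.05-fold smaller in deficient cells (log2 -1.03, -1.15 to -0.92). For the summed copies the LPS ratio was 1.28-fold smaller (log2 -0.36, -0.41 to -0.31). Mcl1 had a 1.58-fold smaller LPS ratio (log2 -0.66, -0.69 to -0.63), while that of Bcl2 was 1.59-fold larger, that is less of a decrease (log2 0.67, 0.41 to 0.94). For Bcl2l1, Bbc3, Bax and Bak1 the interval of the difference held 0. The direction of the LPS ratio was the same in both genotypes for 10 of 10 members, as it was for 10210 of the 12730 tested genes. For Bcl2l11 in deficient cells and for Bax in both genotypes the interval of the LPS ratio held 0, and with DESeq2 size factors Bcl2l11 stood at log2 -0.30 in wild-type and 0.01 in deficient cells.

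Other genes of the pathway were read from lists. Of 53 such genes, 45 were tested, and 20 rose with LPS, 4 fell and 21 did not pass, beside 18.0% and 16.3% of all tested genes that rose and fell. The counts of single lists below are read against the same shares. None passed for genotype in edgeR or in DESeq2. In edgeR 4 had an unadjusted p under 0.05, beside 968 of all 12730 tested genes. Of the 6 other BH3-only genes, 4 were tested, 2 rose, 1 fell and 1 did not pass. Pmaip1 (NOXA), which binds MCL1 and A1, stood at 17.5, 64.9, 24.1 and 61.2 CPM and rose (log2 1.62 ± 0.23, adjusted p 0.00336). Bid, which caspase-8 cleaves to link death receptors to mitochondria, rose as well (31.7, 75.4, 27.7 and 80.6 CPM, log2 1.40 ± 0.20, adjusted p 0.00351). It shares exonic bases with Bcl2l13. Bmf, a BH3-only gene tied to the cytoskeleton, stood at 13.3, 1.99, 13.7 and 1.98 CPM and fell (log2 -2.76 ± 0.30, adjusted p 0.00125). Bik and Hrk had 0 counts in every library.

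Of the 4 other survival genes, 2 were tested and neither passed. Bcl2l2 (BCL-W), which shares exonic bases with Gm20521, stood at 11.9, 20.3, 24.5 and 4.25 CPM, so the deficient LPS library was lowest and the deficient unstimulated one highest. Bcl2l12 stood at 2.95, 2.65, 3.54 and 1.28 CPM. Of 6 other effector and BCL2-like genes, 4 were tested, 1 rose and 1 fell. Bnip3, a mitophagy receptor, stood at 13.1, 283, 13.6 and 38.2 CPM and rose (log2 2.97 ± 0.71, adjusted p 0.0211). Its call ended in the model of LPS alone (adjusted p 0.0520), also without the wild-type unstimulated (0.184) or the deficient unstimulated library (0.168). Bok, an effector kin of BAX, fell from 83 and 102 counts to 12 and 0 (adjusted p 0.0458), a call lost with DESeq2 size factors (0.0618), with no filter (0.105) and in the model of LPS alone (0.0965, and 0.0589 to 0.248 without any 1 library but the wild-type LPS one). Bnip3l, at 244, 216, 239 and 123 CPM, did not pass.

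Downstream of the mitochondria, 4 of 12 apoptosome and caspase genes rose and 1 fell, and the other 7 missed the limit. The gene of cytochrome c, Cycs, stood at 51.7, 167, 57.6 and 171 CPM (log2 1.63 ± 0.18, adjusted p 0.00137). Apaf1, the scaffold of the apoptosome, rose too, and the gene that fell was Parp1, a DNA repair enzyme that caspases cleave (80.4, 34.6, 70.6 and 39.2 CPM). Those last names were chosen after their values were seen. Of 8 genes for inhibitors of apoptosis and their antagonists, 7 were tested, 6 rose and 1, Diablo, did not pass. Htra2, which antagonises the inhibitors, is among those that rose. Cflar, the caspase-8 inhibitor FLIP, stood at 80.0, 958, 87.9 and 1043 CPM (log2 3.58 ± 0.21, adjusted p 0.000198). Birc3 (cIAP2) stood at 33.9, 181, 65.6 and 191 CPM, and Birc6, a giant ubiquitin ligase gene, at 195, 353, 164 and 313 CPM. Birc6 lost its call under total-count scaling (adjusted p 0.0745). In a model of LPS alone Birc6 lost it without the wild-type unstimulated, wild-type LPS or deficient unstimulated library (0.0580 to 0.0981), and Birc3 without either LPS library (0.0568 and 0.0548). Of 17 regulators of the family, 16 were tested, 7 rose, 1 fell and 8 did not pass. Mdm2, the ubiquitin ligase of p53, stood at 55.8, 371, 68.2 and 277 CPM and rose. The NF-kB subunit gene Nfkb1 stood at 81.7, 376, 121 and 424 CPM and rose. Tmbim6, the membrane protein BAX inhibitor-1, stood at 512, 1063, 545 and 1239 CPM and rose, a call lost in a model of LPS alone without the wild-type unstimulated library (adjusted p 0.0550). The regulator that fell, named after its value was seen, was Foxo3, a transcription factor of BIM and PUMA (109, 73.9, 91.5 and 43.3 CPM, adjusted p 0.0266).

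**Figure D5:**
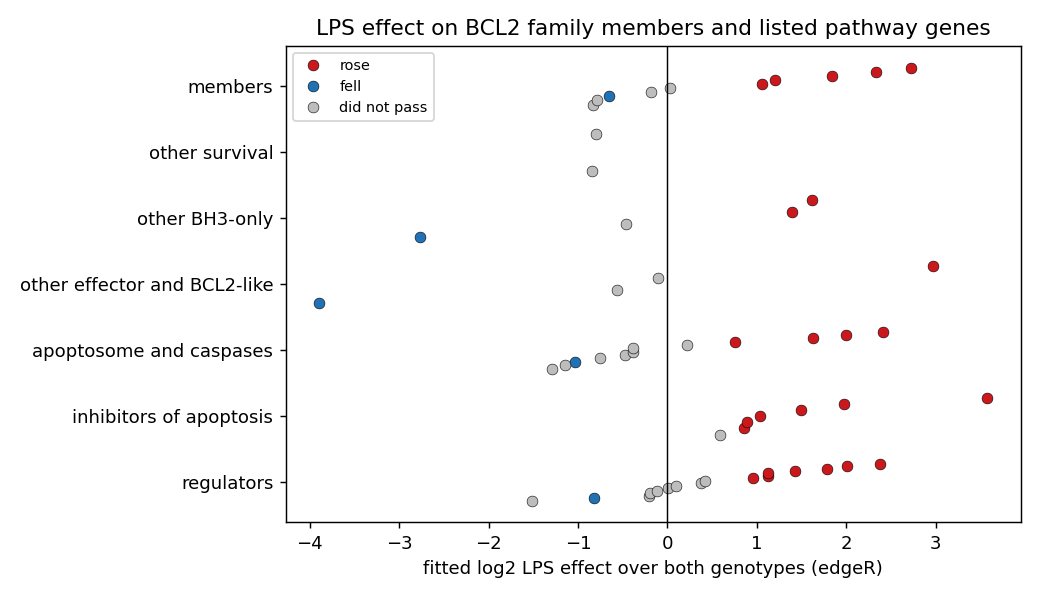
Fitted log2 LPS effect over both genotypes for the 10 members and the 45 tested genes of the pathway lists, 1 point per gene, red for genes that rose, blue for genes that fell and grey for genes that did not pass. All 6 called genes among the inhibitors of apoptosis lie above 0.

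Profiles most like those of members were sought among 4888 protein-coding genes with a mean of at least 10 CPM and no shared exonic bases. Likeness is the root mean square difference of log2 profiles over the 4 libraries, each centred on its mean. Nearest to Mcl1 were Rbpms (0.0328), an RNA-binding protein gene, Ptpn1 (0.0364), a phosphatase of cytokine receptor signalling, and Alg11 (0.0603). Ptpn1 stood at 298, 796, 329 and 509 CPM. Nearest to the summed A1 copies were Orai2 (0.0593), a calcium channel subunit gene, Setdb2 (0.0602) and Usp25 (0.0674). Nearest to Bcl2 were Tusc1 (0.0640), Fam3c (0.0714) and Cpeb1 (0.0720), and nearest to Bcl2l11 were Smim20 (0.0127), Dhx16 (0.0181) and Nipsnap2 (0.0204). Over 4 libraries many genes share a shape, and these names are a description.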

How the data were processed

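The series design text gives poly(A) selection, a HiSeq 2000, Casava v1.8.2 for base calling, Cutadapt for trimming, TopHat v2.0.13 with Bowtie2 for alignment, and Partek for exon annotation. HTSeq and build mm8 appear in the submitters' processing notes. Each library has a file of raw gene counts, which the authors deposited without normalization. How strand and multiply placed reads were handled, and which annotation release was used, the sources used here do not give. No 2 libraries were identical.

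Of the 52550 IDs, 52403 (99.7%) matched GENCODE M21 (GRCm38) without version, and symbols and coordinates come from it, whatever build the reads were aligned to. Testing required 1 CPM in no fewer than 2 libraries and used the quasi-likelihood test of edgeR 4.0.16 (R 4.3.3), TMM factors of 1.15, 0.846, 1.16 and 0.890, genotype and LPS as additive terms, and Benjamini-Hochberg adjustment over all 12730 genes. The model leaves 1 residual degree of freedom, and the standard error is the size of the log2 effect over the square root of F. Ratios of single libraries carry exact Clopper-Pearson 95% intervals, and differences of ratios normal intervals after adding 0.5 counts. They cover counting error only. Alternatives were DESeq2 1.42.0 (size factors and Wald test), total counts, other filters, models with 1 factor, each library left out, subtraction of a share of the wild-type LPS counts, other fold limits and other lengths or UTRs. Members, lists and the naming rule (every member, and from each list the 2 most abundant tested genes, the 2 largest called LPS effects and any called for genotype) were chosen with earlier results of these data known. Some genes that this rule names are not reported here. Protein comparisons were not made, and coding sequences were compared instead.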

Additional observations from a re-analysis of the deposited data

Results flagged for a closer look

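Among the tested pathway genes outside the 10 members, 5 had LPS ratios of opposite sign in the genotypes with both counting intervals clear of 0, and the difference was not tested. No member met both conditions, and how many of all tested genes did was not counted. By sign alone, 37 of the 45 tested pathway genes kept the same direction in both genotypes, beside 10210 of all 12730 tested genes. Bcl2l2, a survival gene, had log2 0.78 in wild-type and -2.53 in deficient cells. Casp6, an executioner caspase gene, had 0.24 and -1.20, and Aifm1, a mitochondrial flavoprotein gene, 0.79 and -0.36. For Fbxw7, a ubiquitin ligase subunit that marks MCL1 for degradation, the values were -0.18 and 0.21, and for Vdac1, the outer-membrane channel, 0.62 and -0.42. Under total-count scaling Casp6 had log2 -0.20 and -1.57 and Fbxw7 -0.62 and -0.17, so their signs no longer differed, while the other 3 kept opposite signs.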

How the results depend on the processing

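No paired analysis was possible because each group holds 1 library and the labels give no replicate numbers that groups share, beyond the additive model itself, in which each factor is fitted with the other as a term. Fits with a library left out used a model of 1 factor alone, so 2 choices changed at once. The count of 5 members that rose was 4 to 5 under the scalings, DESeq2's Wald test and the subtraction of 0.883% of the wild-type LPS counts from the wild-type unstimulated library, and 3 to 5 with a library left out. That share came from 50 genes, chosen for the largest LPS ratios in deficient cells among genes well expressed in the wild-type LPS library. Their median unstimulated level was 1.28% of the LPS level in wild-type and 0.495% in deficient cells. Choosing on the deficient ratio favours a lower percentage there, so the gap between these values cannot be read as a finding. Over all genes, 2297 rose, and 1550 to 2456 did under the scalings, the Wald test and the subtraction. Those that fell over all genes numbered 2075, 1875 with DESeq2 size factors, 3840 with total counts and 1549 with no filter, where more genes were tested. The counts that follow are read beside these. The 1 member that fell became 0 with DESeq2 size factors, 0 with no filter, 3 with total counts, and 0 to 1 with a library left out. Other pathway genes that fell numbered 4, 10 with total counts, 2 with no filter and 1 to 5 with a library left out, and those that rose, 20 in all, numbered 17 without the deficient LPS library and 10 to 13 without any other 1. With total counts, 3 members were beyond 2-fold higher with LPS in wild-type cells (5 with TMM) and 2 lower (0 with TMM). That scaling shifts the wild-type log2 LPS ratio of every gene by -0.44. The share of all tested genes beyond 2-fold under it was not counted, so this change is not a result about the members. With a 1.5-fold limit, 2 were lower in wild-type and 1 in deficient cells, 1 was higher in deficient cells without LPS and 1 with it, and 2 had a smaller LPS ratio in deficient cells, all 0 at 2-fold. Of all tested genes, 21.6%, 19.9%, 6.47%, 6.24% and 8.94% were beyond 1.5-fold in those comparisons and directions. By the longest transcript, Bak1 stood at 0.855 and 0.981 times Bax without LPS, below 1 where exon length put it above. The summed A1 copies kept their LPS call in every alternative tried, with log2 1.75 to 2.31 (2.09 to 2.31 with a library left out). Their genotype effect did not pass in any. With a library left out and no LPS term it was -1.34 to 1.57, values that also hold LPS differences, since LPS is then unequal between the genotypes. Over all genes, calls with a library left out numbered 1088 to 1744 higher and 588 to 1464 lower with LPS, against 2090 and 1835 in the model of LPS alone on all 4 libraries. For genotype, 49 higher and 21 lower genes became 27 and 17 with DESeq2 size factors, 31 and 17 with total counts, 18 and 12 with no filter, 147 and 81 with DESeq2's Wald test, and 0 and 0 in a model of genotype alone.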

Other observations

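Outside the comparisons above, 7 of the 45 tested pathway genes had a difference between LPS ratios wholly beyond 2-fold, beside 6.08% of all tested genes. They were picked out after their values were seen. Casp9, the caspase of the apoptosome, had 2412, 431, 2222 and 1703 counts, with a log2 LPS ratio of -1.99 in wild-type and -0.32 in deficient cells (difference 1.67). Nr4a1, a nuclear receptor that can bind BCL2, had 234, 22, 40 and 36 counts (difference 2.80, 1.90 to 3.70). The LPS ratio was smaller in deficient cells for Bnip3 (log2 difference -2.93, -3.12 to -2.75), Bcl2l2 (-3.30, -3.60 to -3.01), Casp6, Trib3 and Bok. Casp9, Bnip3 and Bcl2l2 share exonic bases with other entries.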
